A study of Rattus norvegicus with 13 samples.

Results

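Lenses that had been exposed to galactose and then to a histone acetyltransferase (HAT) inhibitor were compared with lenses left in galactose for the same time. The comparison took 9 of the 13 arrays of the series, chosen by their labels: the 6 arrays of inhibitor-treated lenses as 1 group and the 3 galactose Day 6 arrays as the other. Whole lenses of Sprague Dawley rats were cultured, and the animals were 6-week-old males. All 9 samples had been in 30 mM galactose for 6 days. The inhibitor samples were C646 at 40 µM, CBP30 at 10 µM, CPTH2 at 80 µM, C646+CPTH2 at those doses, CBP30+CPTH2 at those doses and TH1834 at 50 µM, with 1 array each. For CBP30+CPTH2 1 label gives CPTH2 at both doses, and the 10 µM was read as CBP30 from the title. CPTH2 was therefore in 3 of the 6 arrays, and C646 and CBP30 were in 2 each, so the 6 samples are not repeats of 1 treatment and not fully separate treatments either. The difference between inhibitors is part of the spread against which a shift shared by all of them was tested. The compounds were dissolved in DMSO and were added with fresh medium once the lens had turned white. By the study's methods the partner of a treated lens got fresh medium too, with the solvent DMSO in place of a compound. The labels do not say whether the Day 6 arrays came from such lenses, and where they did not, compound, solvent and medium change cannot be told apart. Nor do they say which animals the lenses came from, and p-values then measure only the spread between these samples, which may be technical.

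HATs transfer acetyl groups to lysines of histone tails, which loosens chromatin and creates docking sites for proteins with a bromodomain. C646 blocks the catalytic site of p300 and its relative CBP, CBP30 blocks the bromodomain of the same pair, CPTH2 was described as an inhibitor of the Gcn5 class, and TH1834 was designed against Tip60. The lens is a single cell layer of epithelium over a mass of elongated fibre cells filled with crystallins, and the mature fibres have lost their nuclei, so most new transcription takes place in the epithelium and the young fibres. Galactose is reduced to galactitol in the lens, and the sugar alcohol draws in water.

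The platform was the GeneChip Rat Gene 2.0 ST, and the unit throughout is the deposited log2 signal, on which a difference of 1 is a doubling. Genes whose log2 signal reached 5 in any of the 13 arrays were kept, and over these 6778 the array medians were 5.62 to 5.76 on Day 6 and 5.73 to 5.89 with inhibitor. The median gene was thus 0.11 higher with inhibitor. Centring each array on its median took this shift to -0.02 and quantile normalization took it to 0.00, so differences of gene groups are read below against 0.11. The 10 crystallins kept had mean signals of 12.16 to 12.31 on Day 6 and 11.86 to 11.98 with inhibitor, and the 13 lens fibre cell genes had 9.49 to 9.69 and 9.57 to 9.74, so all 9 arrays carried the profile of a lens. The 10 lens epithelium genes varied more, with means of 5.63 to 6.53 on Day 6 and 4.76 to 6.92 with inhibitor, lowest in C646+CPTH2 and, on Day 6, in replicate 1. In whole lenses fewer cells of a type and less RNA per cell cannot be told apart. Of the markers of other tissues, 0 of 10 photoreceptor, 0 of 10 pigment epithelium, 0 of 5 endothelial, 0 of 2 red blood cell and 0 of 5 corneal genes reached the minimum, and 2 of 5 skeletal muscle genes did.

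A shift common to all inhibitors was found for few genes. In limma, 3 of 6778 genes (0.0443%) passed a Benjamini-Hochberg adjusted p of 0.05, 1 higher with inhibitor (Cbll1, 0.0148%) and 2 lower (Gpx1 and Or5h25, 0.0295%). At an unadjusted p under 0.05 there were 832 higher and 232 lower genes. That lean did not hold on other scales, with 369 and 515 after centring and 420 and 471 after quantile normalization. Without a model of the spread, the 6 inhibitor arrays all lay above the 3 Day 6 arrays for 467 genes (6.89%) and all below them for 140 genes (2.07%). This split depended on the scale, since after centring on the median it was 221 genes above (3.26%) and 363 below (5.36%), and after quantile normalization 246 above and 329 below. Of the 467 genes above, 40 reached a signal of 5 in inhibitor arrays only, and of the 140 below, 7 reached it on Day 6 only. Such genes entered the comparison through the group where they were high, so their place above or below was in part set by the filter. No gene was at least 2-fold higher than the Day 6 mean in every inhibitor array, and 1 gene, Or5h25, was at least 2-fold lower in every one. The 3 calls were not stable either: without replicate 2 of Day 6, replicate 3 of Day 6, C646, CBP30+CPTH2 or TH1834 there were 0, and without replicate 1 of Day 6 only Or5h25 was called.

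**Figure D1:**
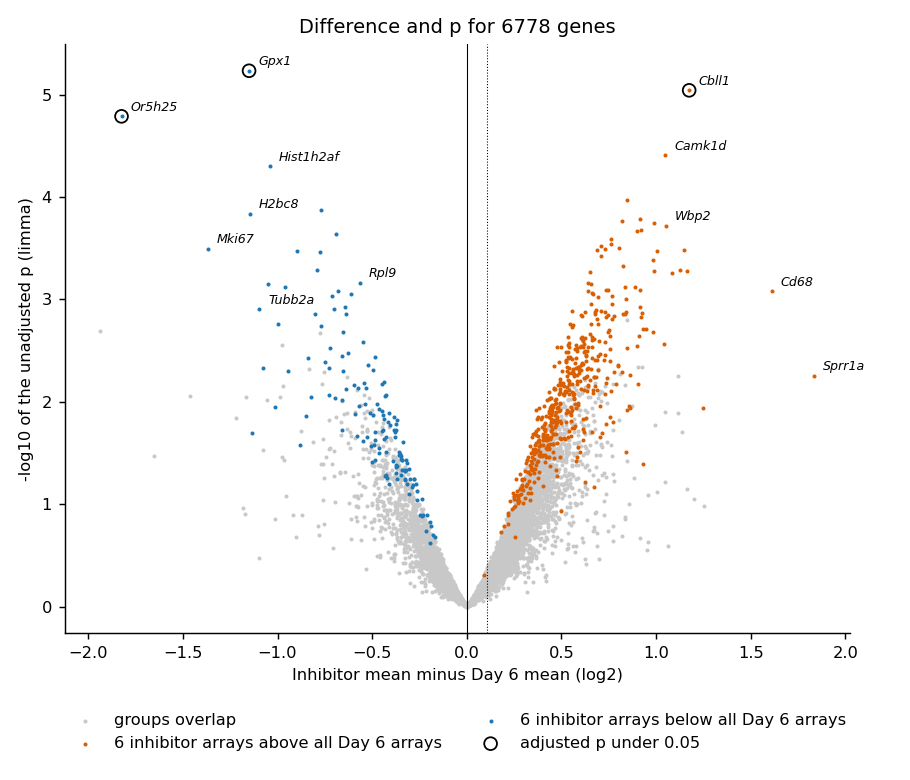
Inhibitor mean minus Day 6 mean (x axis, log2) against the negative log10 of the unadjusted limma p (y axis) for each of 6778 genes. Blue and orange points are genes whose 6 inhibitor arrays all lie below or all lie above the 3 Day 6 arrays, circles mark the 3 genes called, and the dotted line marks the median gene, which lies right of 0 at 0.11.

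Cbll1 codes for Hakai, a RING finger ubiquitin ligase known for marking E-cadherin for removal from the cell surface and also found in the complex that methylates adenosine in messenger RNA. Its log2 signal was 6.03, 6.11 and 6.06 on Day 6. With inhibitor it ran from 6.98 in C646+CPTH2 over a median of 7.19 to 7.62 in CBP30. Every inhibitor array was above every Day 6 array, and the gap was wider than the range within either group. The difference was 1.17 ± 0.16 (SE, 2.26-fold, adjusted p = 0.0308 in limma, n = 6 and 3). The control lens, which had no galactose and 4 days of culture, read 6.57, between the groups. On galactose Day 4 the mean was 6.19 ± 0.71 (SD, n = 3), a spread that reached into the inhibitor range. Cdh1, the gene of E-cadherin itself and 1 of the lens epithelium genes, was at 7.42, 8.74 and 8.96 on Day 6 and between 5.25 and 8.21 with inhibitor, lowest in C646+CPTH2 and overlapping (adjusted p = 0.446 in limma).

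Gpx1 codes for the glutathione peroxidase of the cytosol, which reduces hydrogen peroxide and is one of the main peroxide defences of the lens. Its log2 signal was 7.78, 7.59 and 7.52 on Day 6 and ran from 6.23 in TH1834 over a median of 6.50 to 6.68 in CPTH2. The groups did not overlap and each was tight. Gpx1 was 1.15 lower with inhibitor (inhibitor minus Day 6 -1.15 ± 0.15, SE, 2.22-fold, adjusted p = 0.0308 in limma). The control stood at 6.82 and galactose Day 4 at 7.50 ± 0.09 (SD, n = 3), so the inhibitor arrays all lay below the untreated lens as well. Of 26 alternative settings at the same threshold Gpx1 was called in 14, against Day 4 and with all 13 arrays among them, Cbll1 in 10 of 26 and Or5h25 in 8 of the 24 that kept it. Of the 14 peroxide and superoxide enzymes kept, Gpx1 included, 11 had negative and 3 positive differences. Their median was -0.14, or -0.26 after centring and -0.07 without CBP30, against 0.11 over all genes. In this group 1 gene lay above (6.89% of all genes) and Gpx1 alone lay below (2.07% of all genes). After centring 1 lay above and 3 below, against 3.26% and 5.36% of all genes. After quantile normalization 1 and 4 did, against 246 and 329 of all 6778 genes. The gene above was Cat. This gene of catalase read 7.83, 9.25 and 9.33 on Day 6 against 9.37 to 9.98 with inhibitor, a difference of 0.86 ± 0.29 (SE, adjusted p = 0.214 in limma), where replicate 1 of Day 6 was the low array. Gpx3, the secreted peroxidase, was another of the 3 with positive differences, at 0.47 with overlap.

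Or5h25 is an olfactory receptor gene. It read 4.48, 5.50 and 5.54 on Day 6 and from 2.80 in TH1834 over a median of 3.35 to 3.89 in CPTH2, a difference of -1.82 ± 0.27 (SE, adjusted p = 0.0369 in limma). The groups did not overlap. The control read 3.56 and galactose Day 4 replicate 1 read 3.00, so lenses without inhibitor also stood inside the inhibitor range. Replicates 2 and 3 of Day 4 read 6.07 and 5.72. All inhibitor values and 1 Day 6 value were under the minimum of 5, where a signal need not be above background. A filter that asked for a signal of 5 in 3 of the 9 arrays left the gene out.

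**Figure D2:**
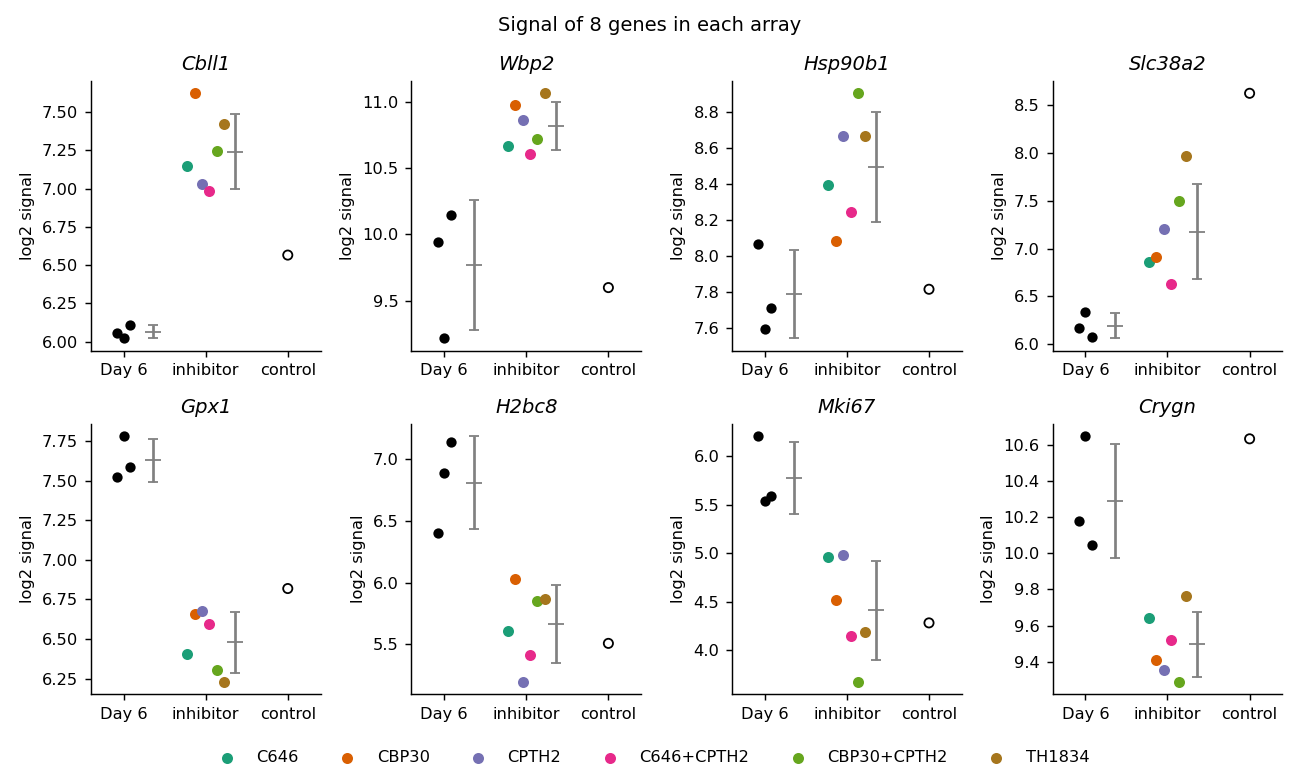
Log2 signal (y axis, which does not start at 0) of 8 genes in the 3 Day 6 arrays (black), the 6 inhibitor arrays (colours) and the single control array (open circle), with the mean and SD of each group in grey. In all 8 panels the inhibitor and Day 6 arrays do not overlap, but only Cbll1 and Gpx1 passed the adjusted p.

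Several of the leading genes on the lower side were histone or cell cycle genes. Replication-dependent histone genes are switched on in S phase to package new DNA, and their messages end in a stem loop. H2bc8, an H2B gene, read 6.88, 7.14 and 6.40 on Day 6 and from 5.20 in CPTH2 over a median of 5.73 to 6.03 in CBP30 (difference -1.15 ± 0.21, SE, adjusted p = 0.0904 in limma). Hist1h2af, an H2A gene, read 5.36, 5.95 and 5.40 against 4.27 to 4.71, and Hist2h3c2, an H3 gene, 9.37, 9.88 and 9.58 against 7.90 to 9.02. In none of these did the groups overlap, yet none was called (adjusted p = 0.0682 for Hist1h2af and 0.118 for Hist2h3c2 in limma). Galactose Day 4 replicate 3 read 4.63 for Hist1h2af and replicate 1 read 8.80 for Hist2h3c2, both inside the inhibitor ranges. The other Day 4 values of these genes lay above those ranges. Among the 11 histone genes of the list kept, 4 lay below the Day 6 arrays against 2.07% of all genes, 0 lay above, and the median difference was -0.56, or -0.68 after centring. The 4 were H4c14, Hist2h3c2, H2ac25 and H3f3b, the last a gene of the replication-independent variant H3.3. The list median was between -0.37 and -0.93 in each inhibitor array, with C646+CPTH2 lowest, and between -0.22 and 0.25 in the Day 6 arrays, highest in replicate 2. Leaving out any 1 of the 9 arrays kept it between -0.42 and -0.75. Histone genes resemble each other closely, so probes of one may read another.

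The upstream sequences of 3 histone genes that lay below are shown because they hold the CCAAT box that many histone promoters share. They are the 200 bases just before the start of transcription in RefSeq on build GRCr8, with CCAAT or its reverse complement ATTGG in capitals. H2bc8 lies on chr17:47404205-47404404, Hist2h3c2 on chr2:186525962-186526161 and H2ac25 on chr10:44233083-44233282, all on the plus strand.
H2bc8: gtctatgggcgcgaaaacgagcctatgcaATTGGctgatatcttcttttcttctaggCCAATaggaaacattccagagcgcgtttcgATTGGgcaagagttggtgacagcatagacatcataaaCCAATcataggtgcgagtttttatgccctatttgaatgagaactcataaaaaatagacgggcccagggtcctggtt
Hist2h3c2: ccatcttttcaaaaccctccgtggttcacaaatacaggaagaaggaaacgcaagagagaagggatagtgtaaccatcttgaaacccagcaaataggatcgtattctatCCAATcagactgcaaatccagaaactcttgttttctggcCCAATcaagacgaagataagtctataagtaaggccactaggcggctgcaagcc
H2ac25: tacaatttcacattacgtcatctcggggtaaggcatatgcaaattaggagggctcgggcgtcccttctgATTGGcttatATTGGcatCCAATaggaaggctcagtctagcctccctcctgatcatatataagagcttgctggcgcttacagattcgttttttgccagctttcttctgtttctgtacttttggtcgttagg
H2bc8 holds 4 such boxes, Hist2h3c2 2 and H2ac25 3. In the 300 bases around the start, searched on both strands, CCAAT was in 8 of the 10 histone genes kept that have a promoter in the table, and in 38.2% of the 5680 genes kept that have one. The octamer ATGCAAAT, seen in H2ac25 in lower case, was in 4 of those 10 and in 1.23% of the 5680. The CCAAT box was also in 15 of 15 genes of the endoplasmic reticulum list described below, and the octamer in 0. All genes kept of that list had positive differences, so the box was not particular to the lower genes. A match in letters is a description of the promoter and not a bound site.

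Other cell cycle genes had low signals with inhibitor as well. Mki67, the Ki-67 proliferation marker, read 5.54, 5.59 and 6.20 on Day 6 and from 3.67 in CBP30+CPTH2 over a median of 4.35 to 4.98 in CPTH2. The groups did not overlap, all 6 inhibitor values were under 5, and the difference was -1.37 ± 0.28 (SE, adjusted p = 0.0904 in limma). The control was at 4.28 and galactose Day 4 replicate 1 at 4.01, both inside the inhibitor range. Replicates 2 and 3 of Day 4 were at 6.18 and 5.90. Zfp367, a zinc finger gene, read 5.81, 5.86 and 5.70 against 4.71 to 5.14 (difference -0.77, adjusted p = 0.0904 in limma), and it was called after centring. Replicates 1 and 2 of galactose Day 4 read 5.14 and 4.99 for Zfp367, inside the inhibitor range. Replicate 3 of Day 4 read 5.73 and the control 4.53. Against all 6 galactose arrays Mki67 and Zfp367 were not called (adjusted p = 0.0669 and 0.0886 in limma). Rrm2, the small subunit of ribonucleotide reductase, which makes DNA precursors, read 4.87, 6.24 and 5.89 against 2.60 to 4.94, so that CPTH2 alone overlapped replicate 1 of Day 6. Of the 11 DNA replication genes kept 1 lay below (against 2.07% of all genes) and 0 above. The gene below was Rfc5, which reached the minimum on Day 6 only. The median difference of the 11 was -0.28, and it was -0.14 without replicate 2 of Day 6. Of the 4 mitosis genes 1 lay below and 0 above (median -0.47). For replication the array medians were -0.47 in CBP30, -0.42 in C646+CPTH2 and -0.18 in CBP30+CPTH2. They were -0.11 in TH1834, -0.09 in C646 and 0.03 in CPTH2, which lay inside the Day 6 range of -0.16 to 0.27. For mitosis the medians were between -0.75 and -0.90 in CBP30, C646+CPTH2 and CBP30+CPTH2, and -0.34 in TH1834. Those of C646 (-0.24) and CPTH2 (0.02) lay inside the Day 6 range of -0.31 to 0.18, whose low end was replicate 1.

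Ribosome and respiratory chain genes had small negative differences. Of 82 cytosolic ribosomal protein genes 14 lay below (2.07% of all genes did) and 0 above, and after centring 26 lay below (5.36% of all genes). The median difference was -0.23, or -0.35 after centring. Of these 82, 37 carry names of near-identical copies, and their signals may be shared. Rpl9, a protein of the large subunit, read 11.39, 11.39 and 11.40 on Day 6 and 10.73 to 10.92 with inhibitor, a difference of -0.56 ± 0.13 (SE, adjusted p = 0.118 in limma) between groups that were each very tight. Of 72 oxidative phosphorylation subunits 9 lay below and 1 above (median -0.21), and after centring 15 lay below and 0 above (median -0.33), against the same shares of all genes. Ndufb8, a subunit of complex I, read 6.77, 6.31 and 6.24 against 5.20 to 5.98, and Atp5mf, a subunit of ATP synthase, 9.56, 8.76 and 8.88 against at most 8.65, without overlap (differences -0.80 and -0.72, adjusted p = 0.126 and 0.155 in limma). The extent differed between arrays. The list medians were -0.39 and -0.41 in CBP30 and -0.37 and -0.50 in CBP30+CPTH2, for ribosome and respiration in turn, but only -0.06 and -0.02 in C646. Replicate 1 of Day 6 was the high array of its group, at 0.22 and 0.26, and without it the differences were -0.10 and -0.12.

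The difference also went with the length of the gene. With the genes sorted by genomic span in RefSeq (known for 99.5% of them) and cut into 5 groups of equal size, the median difference was -0.04, 0.07, 0.13, 0.18 and 0.17 from shortest to longest. The share of genes lying above was 2.74% in the shortest group and 10.7% in the longest, and the share lying below 5.85% and 0.445%. All 6 inhibitor arrays had a lower median in the shortest group than in the longest, by most in CBP30+CPTH2 (-0.15 against 0.30) and by least in C646 (0.03 against 0.10). Replicate 3 of Day 6 went from -0.03 to 0.12 in the same way, while replicates 1 and 2 did not. In the shortest group were 74 of the 82 ribosomal protein genes, 41 of the 72 respiratory subunits, 9 of the 11 histone genes and 8 of the 10 crystallins, against 4 of the 18 endoplasmic reticulum genes described below. The part of gene length in their differences was not tested.

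**Figure D3:**
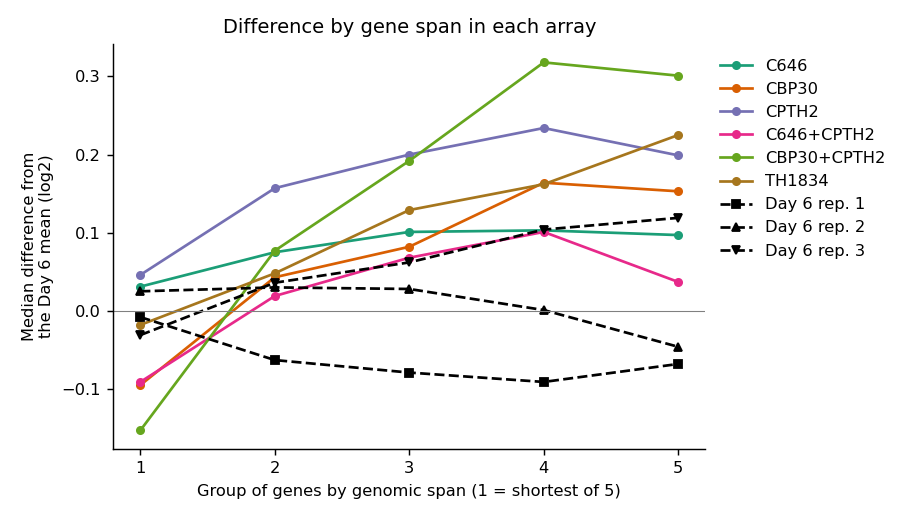
Median log2 difference from the Day 6 mean (y axis) in each of 5 groups of genes by genomic span (x axis, 1 shortest to 5 longest), with a line for each inhibitor array (solid) and each Day 6 array (dashed). The CBP30+CPTH2 line climbs from -0.15 to about 0.30, and Day 6 replicate 3 also climbs.

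Crystallins, the proteins that make the lens clear, showed a small but regular difference. Of the 10 kept, 6 lay below the Day 6 arrays (against 2.07% of all genes) and 0 above, with a median difference of -0.20, or -0.32 after centring. After quantile normalization it was -0.14 with 3 below and 1 above, against 329 and 246 of all 6778 genes. The medians of the 6 inhibitor arrays were all between -0.13 and -0.25. Crygn, a gamma crystallin, read 10.65, 10.04 and 10.18 on Day 6 and from 9.29 in CBP30+CPTH2 over a median of 9.47 to 9.76 in TH1834 (difference -0.79 ± 0.17, SE, adjusted p = 0.107 in limma). The control was at 10.63 and Day 4 at 10.26 ± 0.17 (SD, n = 3), so the inhibitor arrays also stood below these. Crygb read 12.04, 12.16 and 12.03 against 11.51 to 11.88, and Cryge 10.70, 10.48 and 10.49 against 10.06 to 10.25. The control and the Day 4 mean of Cryge, 10.77 and 10.40, were above the inhibitor range too. Those of Crygb, 11.86 and 11.84, lay inside it. The gamma crystallin genes are close copies of one another, and their signals may not be separate. The 13 lens fibre cell genes had 0 above and 0 below and a median of 0.03, which was -0.10 after centring, -0.05 without replicate 1 of Day 6 or without TH1834 and -0.02 without CBP30+CPTH2.

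On the higher side, the leading genes did not pass the test but were separate from Day 6 in all arrays. Wbp2, a WW-domain binding protein that assists YAP and steroid receptors, read 9.21, 10.15 and 9.94 on Day 6 and from 10.61 in C646+CPTH2 over a median of 10.79 to 11.07 in TH1834. Its difference was 1.05 ± 0.20 (SE, adjusted p = 0.0904 in limma), and the control was at 9.60. Camk1d, a calcium and calmodulin dependent kinase, read 4.59, 4.75 and 4.55 against 5.34 to 6.04 (1.05 ± 0.17, adjusted p = 0.0663 in limma), with Day 6 under the minimum. Grina, a membrane protein of the endoplasmic reticulum and Golgi linked to protection from cell death, read 7.08, 7.59 and 7.51 against 7.94 to 8.54. The difference of Grina was 0.90 ± 0.18 (SE), and it was 1 of the genes called against Day 4. The other leading genes were Cblb (a ubiquitin ligase), Sh3bp4, Sf1 (a splicing factor that binds the branch point), Wars1, Ctns (the cystine carrier of lysosomes), Crtc2 (a coactivator of CREB that works with CBP and p300), Ankrd12 and Mapk1ip1. For all of these the groups did not overlap, the differences were between 0.71 and 0.99, and the adjusted p was 0.0904 in limma. On the lower side the same held for Faul2, Ddah2 and Rbbp7-ps1, with differences of -0.69, -0.90 and -0.78. Day 4 lenses without inhibitor were near the inhibitor means for some of the higher genes. Their Day 4 means were 5.66 for Cblb, 4.65 for Sh3bp4, 5.45 for Ctns and 5.83 for Mapk1ip1. Their inhibitor means were 5.75, 4.88, 5.62 and 6.07 in the same order. These genes, Ddah2 and Rbbp7-ps1 were not called against all 6 galactose arrays, while Sf1, Wars1, Crtc2, Ankrd12 and Faul2 were.

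Genes of protein folding in the endoplasmic reticulum had positive differences. This compartment folds secreted and membrane proteins, and when unfolded protein builds up its chaperones are induced. All 18 genes kept had positive differences, as had 65.8% of all genes. Of them 4 of 18 lay above against 6.89% of all genes, 0 lay below, and the median difference was 0.35. After centring the median was 0.22 with 1 above (3.26% of all genes), and after quantile normalization 0.22 with 2 above (246 of all 6778 genes). Hsp90b1, the chaperone GRP94, read 7.59, 7.71 and 8.06 on Day 6 and from 8.08 in CBP30 over a median of 8.53 to 8.90 in CBP30+CPTH2. The gap to replicate 3 of Day 6 was narrow, and the difference was 0.71 ± 0.20 (SE, adjusted p = 0.165 in limma). Dnajc3, a co-chaperone also known as p58IPK, read 5.77, 5.33 and 5.78 against 5.96 to 6.93 (0.80 ± 0.23, adjusted p = 0.171 in limma). Replicates 1 and 3 of galactose Day 4 (6.23 and 6.26) and the control (6.07) lay inside its inhibitor range, and replicate 2 (5.83) lay below. Against all 6 galactose arrays Dnajc3 was not called (adjusted p = 0.121 in limma). Pdia3, a disulfide isomerase, overlapped only through C646+CPTH2 (8.97) and replicate 3 of Day 6 (9.05). The list median was positive in all 6 inhibitor arrays, from 0.19 in TH1834 to 0.65 in CPTH2, and between -0.02 and 0.07 in the Day 6 arrays. The median of all genes was positive in those 6 arrays too, from 0.03 in C646+CPTH2 to 0.17 in CPTH2. In the galactose Day 4 arrays the list median was -0.02, 0.16 and 0.26, the last above TH1834 and C646+CPTH2 (0.23).

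The promoters of Hsp90b1 and Dnajc3 are shown because they carry the endoplasmic reticulum stress element, which is CCAAT, any 9 bases and CCACG, the site through which ATF6 and NF-Y act. The fixed letters of the element or of its reverse complement are in capitals. Again the 200 bases before the start are given from RefSeq on GRCr8, at chr7:23012294-23012493 on the minus strand for Hsp90b1 and chr15:102432467-102432666 on the plus strand for Dnajc3.
Hsp90b1: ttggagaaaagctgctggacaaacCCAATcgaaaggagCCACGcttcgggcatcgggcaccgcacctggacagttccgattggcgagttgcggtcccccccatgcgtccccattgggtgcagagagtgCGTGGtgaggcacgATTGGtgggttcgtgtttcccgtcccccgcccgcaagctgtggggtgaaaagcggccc
Dnajc3: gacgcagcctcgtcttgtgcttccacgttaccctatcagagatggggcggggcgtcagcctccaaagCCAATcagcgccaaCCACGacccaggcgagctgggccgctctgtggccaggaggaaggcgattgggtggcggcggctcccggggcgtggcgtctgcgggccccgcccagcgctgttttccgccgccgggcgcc
Hsp90b1 holds 2 elements, starting 176 and 72 bases before the start, and Dnajc3 1, at 133 bases. In the windows of 300 bases the element, whose first letters are also a CCAAT box, was in 7 of the 15 genes of the list with a promoter in the table, in 0 of the 10 histone genes and in 0.21% of the 5680 genes kept.

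Aminoacyl-tRNA synthetases, which load amino acids onto their tRNAs, had 2 of 18 above (against 6.89% of all genes) and 0 below, with a median of 0.24 that was 0.36 without replicate 3 of Day 6. After centring 1 lay above and 1 below (3.26% and 5.36% of all genes), and the median was 0.11. Quantile normalization gave the same values, against 246 and 329 of all 6778 genes. Wars1, the tryptophan enzyme, read 6.64, 6.85 and 6.68 on Day 6 and from 7.22 in CBP30+CPTH2 over a median of 7.75 to 8.16 in CPTH2 (0.99 ± 0.19, SE). Iars1, the isoleucine enzyme, read 6.47, 5.82 and 6.38 against 6.54 to 7.07. Galactose Day 4 replicate 3 read 7.28 for Wars1 and replicate 2 read 6.69 for Iars1, both inside the inhibitor ranges. The other Day 4 values of both genes lay below those ranges. Among the inhibitor arrays the 3 with CPTH2 had the highest list medians, at 0.54, 0.50 and 0.34, against 0.16, 0.12 and -0.05 in C646, CBP30 and TH1834. The galactose Day 4 arrays, without inhibitor, had 0.19, 0.39 and 0.18. Against all 6 galactose arrays the median difference of the synthetases was 0.11. The 24 genes of the integrated stress response had 0 above, 0 below and a median of 0.19, or 0.07 after centring. Their median was 0.04 against all 6 galactose arrays, and the Day 4 arrays had -0.10, 0.33 and 0.28. The 22 NRF2 targets, genes of the antioxidant response, also had 0 and 0, with a median of 0.22 that was 0.10 after centring and 0.12 without replicate 1 of Day 6. Their medians were 0.40 in C646 and 0.52 in C646+CPTH2 against -0.04 to 0.13 in the other inhibitor arrays and -0.23 to 0.14 on Day 6. The 13 cytosolic heat shock chaperones had 1 above (6.89% of all genes) and 0 below. This turned to 0 above and 1 below after centring (5.36% of all genes below) or quantile normalization (329 of all 6778 genes below). Their median was 0.31, or 0.19 after centring.

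In the polyol pathway and osmotic response group, 1 of 11 lay above (6.89% of all genes), 0 lay below and the median was 0.32, or 0.20 after centring and 0.13 without replicate 1 of Day 6. Slc38a2, an amino acid carrier that cells use to gather osmolytes, read 6.34, 6.08 and 6.16 on Day 6 and from 6.62 in C646+CPTH2 over a median of 7.05 to 7.97 in TH1834. The groups did not overlap (0.99 ± 0.25, SE, adjusted p = 0.145 in limma), and the control was higher than all 9 arrays, at 8.62. Slc6a6, the taurine carrier, read 4.18, 4.23 and 4.89 against 4.40 to 5.85 and 7.44 in the control. Nfat5, the transcription factor that drives osmolyte genes, read 4.03, 4.52 and 4.91 against 4.42 to 5.72 and 6.21 in the control. Both overlapped between the groups. For these 3 genes the inhibitor means stood between Day 6 and the single control array.

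Among p53 target genes 2 of 14 lay above (6.89% of all genes) and 0 below, and 1 lay above after centring (3.26% of all genes) or quantile normalization. The median was 0.09, or -0.03 after centring, 0.01 without C646+CPTH2 and -0.0036 without CBP30+CPTH2. Tp53inp1, a stress-induced partner of p53, read 7.53, 7.90 and 8.06 on Day 6 against 8.41 to 9.23, and 6.18 in the control (0.99 ± 0.21, SE, adjusted p = 0.107 in limma). Here the inhibitor arrays were farther from the control than Day 6 was. Ccng1, cyclin G1, read 10.68, 11.36 and 11.48 against 11.58 to 12.04. Of 19 autophagy and lysosome genes 2 lay above (6.89% of all genes) and 0 below, and 1 lay above after centring (3.26% of all genes) and 0 after quantile normalization. The median was 0.17, or 0.05 after centring or without replicate 1 of Day 6 and 0.10 without CBP30. The 2 genes code for lysosomal membrane proteins, Lamp1 at 8.16, 8.09 and 8.06 against 8.20 to 9.87, and Lamp2 at 8.86, 9.43 and 9.44 against 9.52 to 9.88. Lamp1 was highest in C646+CPTH2.

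Cd68, a lysosomal membrane protein used as a macrophage marker, read 4.73, 5.21 and 4.32 on Day 6 and from 5.59 in CBP30 over a median of 6.20 to 7.51 in C646+CPTH2. The groups did not overlap (1.61 ± 0.37, SE, adjusted p = 0.118 in limma). Only 3 of 13 macrophage and immune cell markers reached the minimum, and the other pair lay the opposite way with overlap: Lyz2 at 3.56, 4.33 and 3.78 against 2.73 to 4.51, and Fcer1g at 3.70, 4.74 and 4.06 against 3.17 to 4.65. Lyz2 and Fcer1g reached the minimum only in the control, at 5.05 and 5.41. In all 9 arrays compared they were under it, so their direction may be that of background. The 10 markers that did not reach the minimum were at most at 4.14 in the 9 arrays, and the summed log2 signal of the 13 was 41.0 to 47.1 on Day 6 and 40.8 to 44.1 with inhibitor. Sprr1a, a cornified envelope gene also induced by stress, read 3.75, 3.52 and 3.37 against 4.25 to 7.30, highest in C646+CPTH2 and with a wide spread (1.83 ± 0.55, SE, adjusted p = 0.179 in limma). It reached the minimum in inhibitor arrays only, so it was tested through the group where it was high.

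Some genes differed widely among the inhibitors while leaning 1 way on average. Tfrc, the transferrin receptor for iron uptake, read 4.74, 5.38 and 4.81 on Day 6 and from 5.29 in TH1834 over a median of 5.88 to 7.32 in CBP30+CPTH2 (1.05 ± 0.36, SE, adjusted p = 0.219 in limma). Dhcr7, the last enzyme of cholesterol synthesis, read 7.02, 7.65 and 7.99 against 7.98 to 9.03, with an overlap at the very edge. Ccl2, a chemokine that attracts monocytes, read 7.04, 7.70 and 6.72 against 4.14 in C646+CPTH2 to 6.91 in TH1834. The lists of these genes had 0 members above and 0 below, with medians of 0.19 over 10 iron handling genes, 0.16 over 17 cholesterol and fatty acid synthesis genes and -0.42 over 9 inflammatory response genes. Single arrays moved all 3 medians. That of iron handling was 0.08 without replicate 1 of Day 6. That of cholesterol and fatty acid synthesis was 0.04 without replicate 2 of Day 6, 0.08 without CPTH2, 0.29 without CBP30 and 0.30 without replicate 3 of Day 6. That of the inflammatory genes was -0.20 without C646+CPTH2 and -0.25 without replicate 1 of Day 6.

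Genes for the enzymes that the compounds target were measured in part. Crebbp, the gene of CBP, read 6.08, 6.11 and 6.34 on Day 6 and from 6.30 in C646 over a median of 6.71 to 7.08 in CBP30+CPTH2, with overlap through C646 alone (0.52 ± 0.17, SE, adjusted p = 0.214 in limma). Kat2a, the gene of Gcn5, read 5.21, 5.17 and 5.40 against 5.14 to 5.66, and Kat5, the gene of Tip60, 5.17, 5.43 and 5.53 against 5.26 to 5.62, both with wide overlap and differences of 0.11 and 0.15, which are about the shift of all genes. The difference of Kat2a was -0.02 after centring. Ep300 was not analysed here. Of 16 HAT genes 1 lay above (6.89% of all genes), 0 lay below, and the median was 0.22, or 0.10 after centring. The gene above was Taf1, a subunit of the general factor TFIID (4.03, 4.77 and 4.66 against 4.87 to 5.41), which reached the minimum in inhibitor arrays only. In the list of deacetylases and sirtuins, which also holds the co-repressor scaffolds Ncor1, Rcor1 and Sin3a, 2 of 13 lay above (6.89% of all genes) and 1 below (2.07%). After centring 1 lay above (3.26% of all genes) and 1 below (5.36%). The 2 above were Sirt2 and Rcor1, and Rcor1 reached the minimum in inhibitor arrays only. Sirt2, a deacetylase that acts on tubulin and histones, read 9.02, 9.71 and 9.99 against 10.25 to 10.65 (0.89 ± 0.20, SE, adjusted p = 0.118 in limma). Hdac1, a class I histone deacetylase, read 5.98, 5.96 and 6.15 against 5.34 to 5.67 (-0.49 ± 0.14, SE, adjusted p = 0.165 in limma). Neither overlapped.

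Cytoskeletal genes differed among the inhibitors. Of 13 actin and contractile genes 2 lay below (2.07% of all genes) and 0 above, and the median difference was -0.49, yet the array medians were 0.01 in C646 and -0.01 in CPTH2 against -0.71 in CBP30, -0.71 in C646+CPTH2, -0.90 in CBP30+CPTH2 and -0.82 in TH1834. Tagln, the smooth muscle protein transgelin, had 7.66, 8.33 and 8.83 on Day 6. It had 8.14 in C646 and 8.26 in CPTH2, 6.80 and 6.75 in C646+CPTH2 and TH1834, and 4.99 and 4.81 in CBP30 and CBP30+CPTH2, so the adjusted p was 0.285 in limma. Tpm4, a tropomyosin, lay below with 6.93, 7.01 and 6.94 against 6.01 to 6.91, where the gap to CPTH2 was tiny. Of 9 tubulin and stathmin genes 2 lay below (2.07% of all genes) and 1 above (6.89%), and after centring 2 lay below (5.36%) and 0 above (3.26%). Tubb2a, a beta tubulin, read 8.11, 8.02 and 7.61 against 6.29 to 7.35 (-1.10 ± 0.26, SE, adjusted p = 0.126 in limma), and Stmn1, which takes microtubules apart, 7.71, 7.86 and 8.11 against 6.95 to 7.49. The gene above was Tuba4a, which was at 6.54 in C646+CPTH2 and at 4.19 to 4.90 in the others, so that it was kept through 1 array. A further list of 28 genes, the RT-qPCR targets chosen on these same samples, had 2 below (2.07% of all genes), 0 above and a median of -0.48, and that choice makes their direction no independent evidence.

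**Figure D4:**
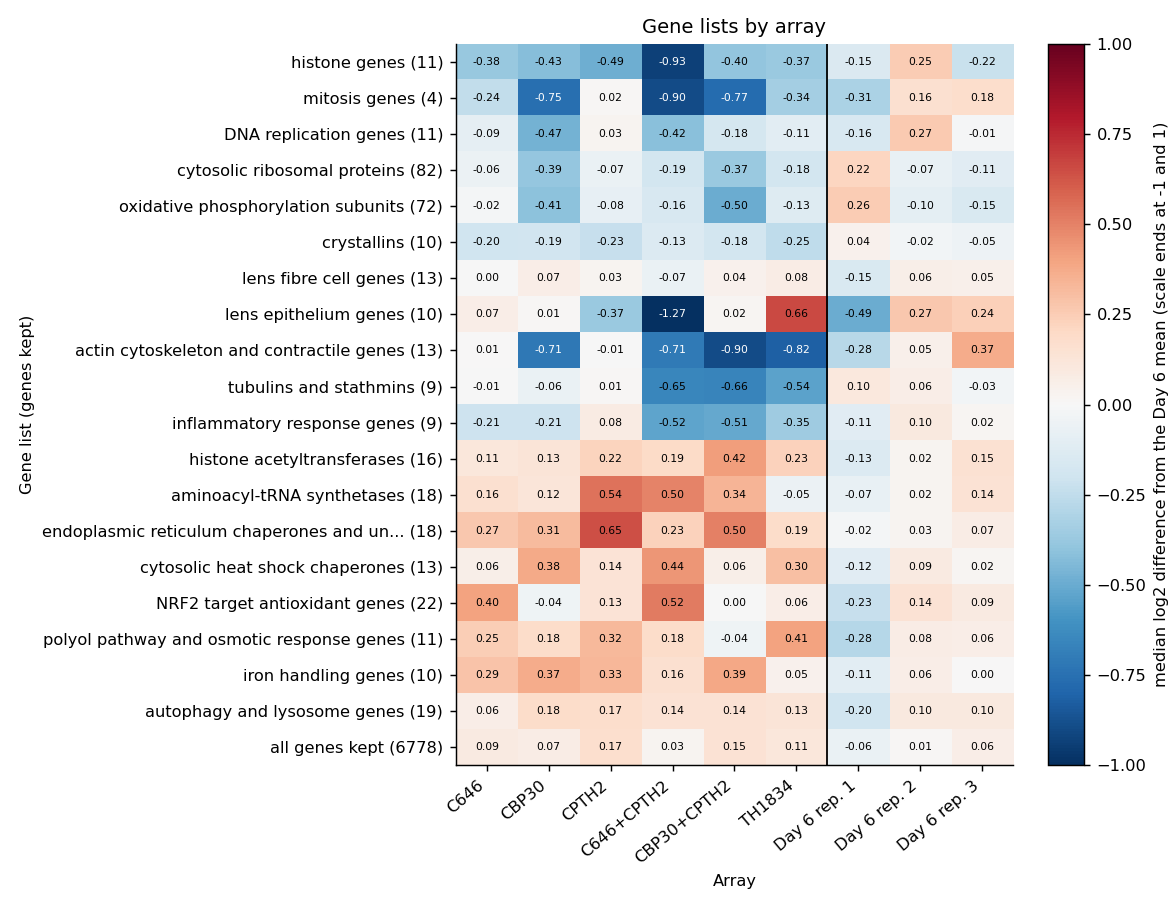
Median log2 difference from the Day 6 mean (colour and printed value) of 19 gene lists and of all genes kept (rows, number of genes in parentheses) in the 6 inhibitor arrays and the 3 Day 6 arrays (columns, separated by a line). Histone genes and crystallins are negative in all 6 inhibitor columns. Endoplasmic reticulum chaperones are positive in all 6, as are all genes kept. Among the inhibitor columns the actin list is near 0 in C646 and CPTH2.

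The inhibitor arrays were as far from each other as from Day 6. The root mean square log2 difference over all genes was 0.312 to 0.602 between pairs of inhibitor arrays (median 0.48) and 0.351 to 0.613 between an inhibitor and a Day 6 array (median 0.481), and the Day 6 arrays differed by 0.313 to 0.453. C646 was the nearest to Day 6, at 0.351 from replicates 2 and 3, and its closest array of all was CPTH2, at 0.312. C646+CPTH2 was 0.544 to 0.571 from the Day 6 arrays. The number of genes at least 2-fold from the Day 6 mean and outside the Day 6 range was 34 higher and 13 lower in C646, 139 and 77 in CBP30, 121 and 18 in CPTH2, 160 and 162 in C646+CPTH2, 158 and 113 in CBP30+CPTH2, and 144 and 55 in TH1834. Without the condition on the Day 6 range, 410 genes were at least 2-fold higher than the Day 6 mean in exactly 1 inhibitor array, 105 in 2, 30 in 3, 11 in 4 and 1 in 5. On the lower side the numbers were 238 in 1, 51 in 2, 20 in 3, 8 in 4, 1 in 5 and 1 in all 6. The median SD per gene was 0.269 among the 6 inhibitor arrays, 0.204 on Day 6 and 0.187 on Day 4. Between the 3 arrays with CPTH2 and the 3 without it, limma called 0 genes (416 at an unadjusted p under 0.05).

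With the 3 galactose Day 4 arrays added to the reference, more genes were called. Against all 6 galactose arrays 115 genes were higher (1.7%) and 26 lower (0.384%), and for 146 genes (2.15%) all inhibitor arrays lay above and for 51 (0.752%) all lay below the 6 galactose arrays. The split depended on the scale here too, with 61 higher and 70 lower after centring and 68 and 60 after quantile normalization. Gpx1, Tubb2a, Stmn1, Crygn, H2bc8, Hist2h3c2, Ndufb8, Atp5mf, Rpl9 and Rrm2 were among the genes lower in this fit. Cbll1, Wbp2, Grina, Sf1, Wars1, Tp53inp1, Hsp90b1, Cd68, Steap3 and Tfrc, the last 2 for iron uptake, were among those higher. Gpx1 differed by -1.09 ± 0.12 (SE) and Grina by 0.95 ± 0.13 in this comparison. The reference then mixed 2 times of culture, and the counts rested on single arrays. Without replicate 2 of Day 4 they were 2 and 1, without CPTH2 14 and 8, without replicate 1 of Day 6 19 and 4, and without replicate 1 of Day 4 201 and 43.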

How the data were processed

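Total RNA of cultured rat lenses was hybridised to GeneChip Rat Gene 2.0 ST arrays. The authors preprocessed the scans, and the deposited table holds log2 signals of 36685 probe sets in 13 arrays. The background correction and normalization are not given in the sources used here, and no normalization was added. Of the probe sets, 18511 carry 1 gene name, and where a gene had several, the brightest on average was used (18166 genes). Genes with a log2 signal of 5 or more in at least 1 array were kept (6778). Detection above background was not assessed, and the number of arrays limits the precision. Groups came from the sample labels. The 6 inhibitor arrays were compared with the 3 Day 6 arrays in limma 3.58.1 under R 4.3.3 (7 residual and 5.54 prior degrees of freedom, two-sided, Benjamini-Hochberg over all genes kept). The code of the fit was checked on simulated data with independent noise and, for some genes, an equal shift in all 6 inhibitor arrays. Differences between inhibitors were not simulated, so that check does not bear on the calls. Lists were described by counts and medians in Python 3.11.15 with pandas 2.3.3. Promoters were matched to RefSeq by gene identifier, and 5680 genes kept had one.

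The members, gene lists and naming rule were chosen with earlier results of these data known. Named genes are the 12 largest changes called in each direction, filled up by the smallest p where fewer were called, up to 4 members per list by smallest p, the genes the study named and the genes of the target enzymes. Alternatives were other scalings, filters, priors, thresholds, reference groups and left-out arrays. Chosen after seeing the data were the scaling and left-out arrays of the comparison with all 6 galactose arrays, and the removal of C646+CPTH2 together with replicate 1 of Day 6.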

Additional observations from a re-analysis of the deposited data

Results flagged for a closer look

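In 5 of the 100 genes examined one by one, 1 inhibitor array stood apart from the other 5 by Dixon's test, and chance flags about 1 in 20 groups, so this number is near that of chance. Cblb was at 5.38 in CBP30+CPTH2 against 5.74 to 5.91 in the others. Zfp367 was at 4.71 in CBP30 against 5.05 to 5.14. The other 3 were in C646+CPTH2. Rbbp7-ps1 was at 4.25 there against 4.54 to 4.65, Cdh1 at 5.25 against 7.42 to 8.21, and Tuba4a at 6.54 against 4.19 to 4.90.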

How the results depend on the processing

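No paired analysis was possible because the inhibitor arrays carry no replicate numbers that match those of Day 6. The counts called higher and lower were 5 and 2 with 13 arrays and 1 group per condition, 0 and 1 with 13 arrays in 4 groups, 3 and 1 against Day 4, 115 and 26 against all 6 galactose arrays, 0 and 3 after quantile normalization, 1 and 4 after centring, 0 and 0 without a filter, 1 and 1 with each stricter filter and with the trend, 0 and 1 with a separate spread for each group, and 19 and 9 at an adjusted p under 0.1. They were 0 and 0 with the 4 single-compound arrays, the 3 without CPTH2 or the 3 with CPTH2, and 0 and 1 without C646+CPTH2 and replicate 1 of Day 6 together. Leaving out single arrays gave 0 to 2 higher and 0 to 2 lower. The genes called were not always the 3 of the main fit. With 1 group per condition they were Ciart, Mllt11, Sacm1l, Sprr1a and Wars1 higher and Gpx1 and Tubb2a lower. With a separate spread for each group only Rpl9 was called.

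Genes with no overlap, above and below, were 467 and 140. They were 303 and 215 against Day 4, 146 and 51 against all 6 galactose arrays, 246 and 329 after quantile normalization, and 221 and 363 after centring. Without a filter they were 607 and 481, and at a mean of 6 or more 248 and 81. Fewer arrays make separation easier: there were 790 above with single compounds, 888 and 290 without CPTH2, 1318 and 339 with CPTH2, 833 and 334 without C646+CPTH2 and replicate 1 of Day 6 together, and 479 to 888 above and 154 to 313 below without single arrays. Against all 6 galactose arrays the calls were 61 and 70 after centring, 68 and 60 after quantile normalization, and 2 to 201 higher and 1 to 43 lower without single arrays. Apart from the number of arrays or genes that enter, the cause of these changes was not tested.

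Of the 100 genes, 99 kept their direction in all settings in which they were fitted. Kat2a did not: its difference was -0.14 against Day 4, -0.015 against all 6 galactose arrays, -0.016 after centring and -0.0098 without CPTH2. Signals under 5 may not be above background, which limits the sizes for Or5h25, Mki67, Camk1d, Sh3bp4, Cd68 and Sprr1a. The same limit holds for Hist1h2af, Rrm2 and Rbbp7-ps1, whose inhibitor signals were all under 5. It holds too for Cblb, Ctns, Ankrd12, Taf1, Tuba4a, Slc6a6 and Nfat5, whose Day 6 signals were all under 5, and for Lyz2 and Fcer1g in both groups.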
